A study of Mus musculus with 9 samples.

Results

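Cells of the trunk that carried the neural crest label were compared with trunk cells that did not, in mouse embryos at E12.5, in mid-gestation. The embryos were P0-Cre/Floxed-EGFP, with a CAG-CAT-EGFP reporter, on a C57/BL6J background crossed to ICR. In these animals the promoter of P0, the main myelin protein of Schwann cells, drives Cre, and Cre switches on EGFP in the labelled cells and all their descendants. Trunk EGFP+ cells (Tp) were hybridised to 3 arrays and trunk EGFP- cells (Tn) to 2, chosen by the region and the EGFP gate that the sample titles give, out of 9 arrays in the series. The other 4 arrays hold EGFP+ (Cp) and EGFP- (Cn) cells of the craniofacial region of such embryos. All 4 groups came from 1 genotype and 1 stage. The heart fields had been removed from the trunk. The label is historical, so a Tp cell may already be a neuron or a glial cell, and the study mentions slight label in the notochord.

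Trunk neural crest cells leave the dorsal neural tube and settle along nerves and beside the aorta. They give rise to sensory neurons of the dorsal root ganglia, to sympathetic neurons and chromaffin cells, to Schwann and satellite glia, and to pigment cells. Unlabelled trunk cells hold what remains of the body: blood, muscle, spinal cord, cartilage, kidney, gonad and vessels. In a bulk sample, fewer cells of a type and less RNA per cell cannot be told apart.

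The arrays were 1-colour oligonucleotide arrays of 23473 probes, and the values are the authors' processed intensities on the log2 scale. On the 5 trunk arrays, 79.8% to 90.2% of probes lay above the blank spots, and the median spot was 1.81 to 3.21 times the blank mean. Tp replicate 3 had the lowest ratio of spot to blank, although its median spot reading of 62 was the highest, had the most empty cells (2776) and was scanned alone. Replicates 1 of Tp and Tn shared a scan, as did replicates 2. Within the first shared scan the scanner's detector gain was 37 for Tp and 36 for Tn. Arrays of 1 trunk group correlated at r = 0.980 to 0.988 across probes and arrays of different trunk groups at r = 0.961 to 0.970. A difference is given as Tp minus Tn in log2 units with its standard error, and called when the limma p-value adjusted over all 22723 tested probes was under 0.05. The study calls its samples biological duplicates but does not name their litters, so a p-value here covers the variation among these arrays.

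Of the tested probes, 529 were higher in Tp (2.33%) and 941 were lower (4.14%). With each array scaled by quantiles, 735 were higher and 842 lower, and the median difference over all probes went from -0.11 to 0.02. The values of Tp and Tn did not overlap at 6351 probes (27.9%). At all 1470 called probes (6.47%) the difference had the same sign within both shared scans. The arrays of these scans also gave the calls, so this is no replication, and the share over all probes was not computed. With the ring around each spot taken as background and an offset of 50 added, 124 probes passed (0.546%), 58 higher and 66 lower, of which 92 were among the 1470. The log ring reading followed the log spot reading on these arrays (r = 0.962 to 0.985 across probes). In this setting some differences shrank, as for Th (4.21 to 1.47), and others grew, as for Fabp7 (2.58 to 6.69). Gap43 went from 2.36 to 2.62 ± 1.21 and lost its call. Why calls were lost was not tested. The parts of the ring and the offset were not separated. With the blank spots as background, 515 were higher and 558 lower. Without Tn replicate 1 the higher count was 319, and without Tn replicate 2 the lower count was 572.

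**Figure D1:**
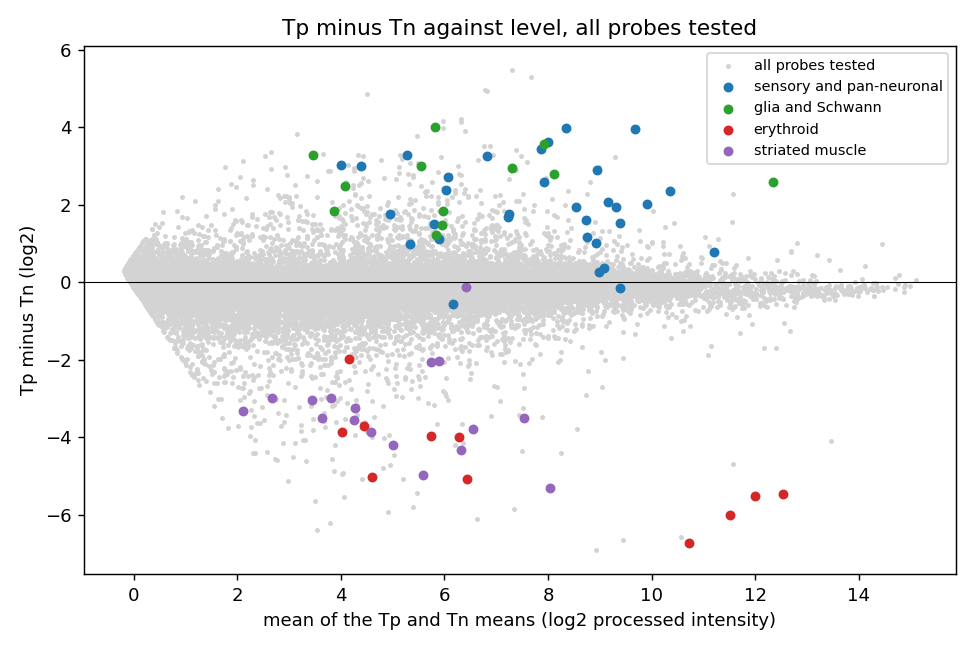
Each point is 1 tested probe, with the mean log2 processed intensity of Tp and Tn on the horizontal axis and Tp minus Tn (log2) on the vertical axis; colours mark 4 groups of gene lists. Erythroid probes reach -6.74, and sensory, pan-neuronal and glial probes reach 4.0.

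Gene names were taken from a table of the study that holds 302 names. It was drawn up from 8 of these 9 arrays, by an adjusted p-value and a fold threshold, so counts within the gene lists describe chosen probes and are not independent evidence of a direction. Of the named probes, 117 were higher in Tp, 116 were lower and 73 did not pass. Among the 10 named probes with the highest difference were those of Th, Pcdh21, Lgi4, Rgs4, Neurod1, Kcnmb2, Wdr66, Isl1 and Ednrb. The 10 lowest were those of Olfr376, Hba-x, Hbb-b1 on 2 probes, Hsd3b6, Xtrp3s1, Lbxcor1, Hbb-y, Lhx1 and Actc1. Both sets of 10 were taken only from called probes whose Tp and Tn arrays did not overlap.

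**Figure D2:**
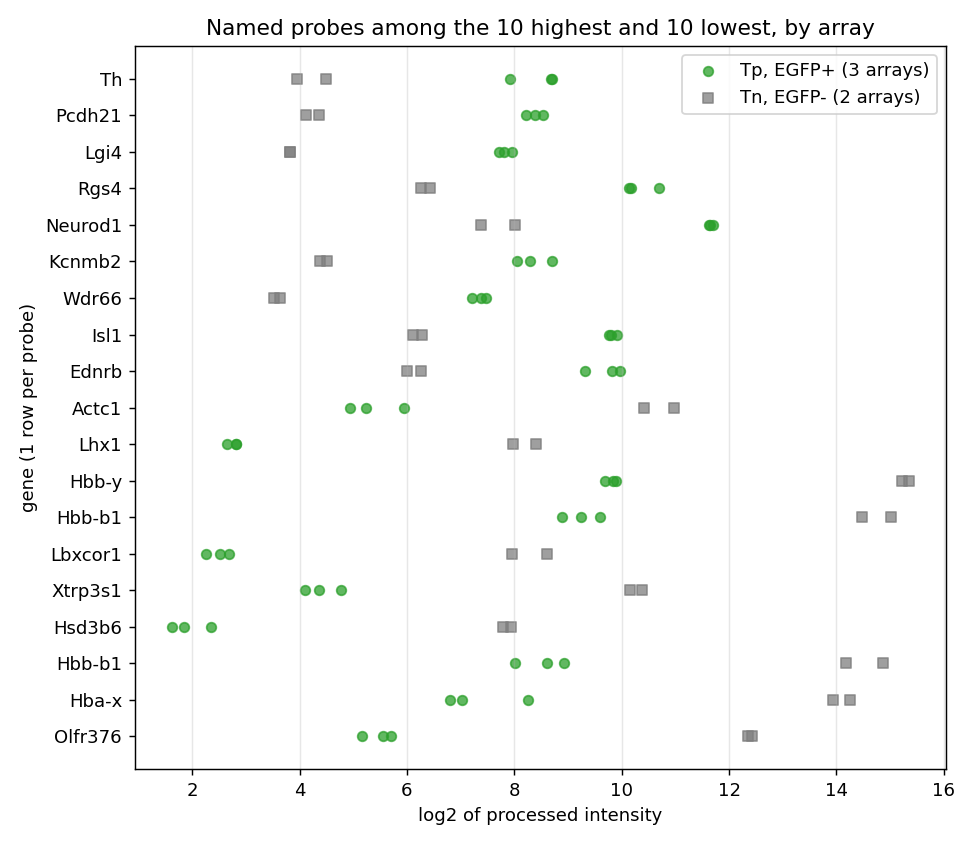
Log2 processed intensity of 9 of the 10 highest and the 10 lowest named probes, 1 row per probe, with green circles for the 3 Tp arrays and grey squares for the 2 Tn arrays. Only called probes without overlap could enter, and the Tn values of Hba-x sit at 14.25 and 13.94 against 6.80 to 8.25 in Tp.

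The gene lists were chosen with earlier results of these data known, so members differing together is no independent finding. Promoter sequences are shown for 4 members of the groups described below. They are the 250 bases before the RefSeq gene start in build GRCm38.p6, read 5′ to 3′ on the gene's strand. Capitals mark a match to a motif on either strand.

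Th, chr7:142899996-142900245, minus strand, cyclic AMP response element: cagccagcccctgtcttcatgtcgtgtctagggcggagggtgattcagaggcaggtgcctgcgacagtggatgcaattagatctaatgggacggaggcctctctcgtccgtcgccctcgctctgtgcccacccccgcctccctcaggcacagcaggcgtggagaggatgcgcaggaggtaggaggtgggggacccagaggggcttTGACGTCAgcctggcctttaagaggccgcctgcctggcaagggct
Hba-x, chr11:32276350-32276599, plus strand, GATA motif: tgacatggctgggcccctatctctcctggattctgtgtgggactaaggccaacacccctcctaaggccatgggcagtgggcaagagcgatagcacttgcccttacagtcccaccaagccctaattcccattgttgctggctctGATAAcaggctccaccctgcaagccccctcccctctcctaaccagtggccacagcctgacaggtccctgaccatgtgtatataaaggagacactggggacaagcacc
Hbb-y, chr7:103853208-103853457, minus strand, GATA motif: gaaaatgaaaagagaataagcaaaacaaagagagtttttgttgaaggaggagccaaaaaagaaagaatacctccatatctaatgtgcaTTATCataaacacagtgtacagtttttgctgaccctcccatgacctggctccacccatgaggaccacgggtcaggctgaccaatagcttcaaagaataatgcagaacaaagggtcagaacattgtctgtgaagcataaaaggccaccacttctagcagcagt
Chrna1, chr2:73580339-73580588, minus strand, E-box: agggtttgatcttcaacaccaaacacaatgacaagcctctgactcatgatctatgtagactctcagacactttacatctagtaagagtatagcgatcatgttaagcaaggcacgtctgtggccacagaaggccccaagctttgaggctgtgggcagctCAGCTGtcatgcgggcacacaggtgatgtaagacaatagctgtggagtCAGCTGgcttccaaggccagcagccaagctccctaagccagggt

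The full cyclic AMP response element, TGACGTCA, was found in 1.55% of the 32851 RefSeq promoter windows and in 1 of the 3 autonomic genes with a window, Th. The GATA motif, searched as GATAA, was found in 22.6% of all windows and in 6 of the 6 erythroid genes with one. The E-box CAGCTG was found in 13.0% of windows and in 4 of the 15 muscle genes with one. The percentages are shares of windows and the list counts are of genes, so they are not directly comparable. A match says only that the letters are there.

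Sensory neuron genes were higher in Tp. The list held 19 genes, of which 10 were named. All 10 named members passed, with a median difference of 3.15 against -0.0095 over all named probes. Among all named probes, 117 were higher in Tp and 116 were lower. Names exist only for the study's table of differing genes, and the list was chosen with earlier results known. The contrast of medians is therefore no independent evidence. Neurod1, a basic helix-loop-helix factor of newly born sensory neurons, read 11.70, 11.63 and 11.65 on the Tp arrays and 7.38 and 8.0 on the Tn arrays. All Tp arrays lay above both Tn arrays, a difference of 3.96 ± 0.29 (adjusted p = 8.9e-06). Within the shared scans the difference was 4.32 and 3.62. Isl1, a LIM homeodomain factor of sensory and sympathetic neurons, read 9.80, 9.90 and 9.77 in Tp and 6.28 and 6.11 in Tn. Its fold was 12.4. The closest Tp array to the Tn arrays was replicate 3.

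The genes of the mature nociceptor were also in this group. Scn10a encodes a sodium channel of pain-sensing neurons, and its difference was 3.04 ± 0.24. P2rx3, an ATP-gated channel of the same neurons, differed by 2.72 ± 0.25. Tlx3, a homeobox factor that specifies them, differed by 2.58 ± 0.31. Isl2 and Neurod4, relatives of Isl1 and Neurod1, differed by 3.29 ± 0.28 and 3.26 ± 0.30. The smallest differences of the list were those of Nhlh2 (1.77 ± 0.30) and Klf7 (1.76 ± 0.31), a zinc finger factor of sensory neurons. Neurod4 and Klf7 were among the 3 of 10 that passed with the ring as background.

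Autonomic and chromaffin genes were higher in Tp as well, 7 of 7 with a median difference of 2.42. Th, tyrosine hydroxylase, the rate-limiting enzyme of catecholamine synthesis, had the highest difference of any named probe. It read 7.91, 8.68 and 8.70 in Tp and 4.49 and 3.95 in Tn. The groups lay far apart, with a fold of 18.5 (4.21 ± 0.31, adjusted p = 8.9e-06), and the difference was 3.42 within the first shared scan and 4.73 within the second. Tlx2, a homeobox factor of crest-derived ganglia, differed by 2.89 ± 0.28 and Insm1, a zinc finger factor of neuroendocrine cells, by 2.42 ± 0.31. Gfra3, the artemin receptor subunit of sympathetic and sensory neurons, differed by 2.20 ± 0.25, and Chrna3, the nicotinic receptor subunit of autonomic ganglia, by 1.5 ± 0.25. Only 1 of the 7, Chga, passed with the ring as background.

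Neuropeptides and granule proteins were mixed. Of 9 named members, 5 were higher in Tp, 1 was lower and 3 did not pass. Without Tn replicate 2 only 3 of them passed as higher, and Pcsk2 and Scg3 were the members lost. Cartpt, the precursor of the CART peptide, read 8.45, 8.79 and 8.49 in Tp and 5.14 and 5.47 in Tn, a fold of 9.67. Chga, chromogranin A of dense-core granules, differed by 2.54 ± 0.24, and Gal, galanin, by 2.26 ± 0.24. The granule protease Pcsk2 (1.52 ± 0.28) and the granule protein Scg3 (1.16 ± 0.27) were higher by less, and Scg3 lost its call when Tn replicate 1, Tn replicate 2, Tp replicate 1 or Tp replicate 2 was left out. Penk1, the enkephalin precursor, was the member lower in Tp. It read 6.31, 6.07 and 6.30 in Tp and 7.68 and 7.56 in Tn, a fold of 2.63. Resp18 (0.83 ± 0.28), Nts (0.54 ± 0.27) and Scg5 (0.43 ± 0.27) did not pass, and of these Scg5 passed with the ring as background (2.0 ± 0.20, adjusted p = 0.019).

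Genes that most neurons use were higher in Tp at 15 of 22 named probes, none was lower and 7 did not pass. The median difference was 1.57. With quantile scaling, the replicate block or the scan block 18 of the 22 were higher, and 17 were without Tp replicate 3. Rgs4, a regulator of G protein signalling, read 10.13, 10.70 and 10.17 in Tp and 6.27 and 6.44 in Tn. It stood apart from the rest of the list at 3.98 ± 0.28. Nefl, the light neurofilament, read 10.58, 10.41 and 10.20 against 7.79 and 7.19. Gap43, a growth cone protein, differed by 2.36 ± 0.24, Camk2b, a calcium-dependent kinase, by 3.0 ± 0.24 and Ctnnd2, a catenin of neurons, by 2.38 ± 0.27. Elavl4, an RNA-binding protein of neurons, was measured by 2 probes, which differed by 2.08 ± 0.22 and 1.61 ± 0.27. Uchl1, the neuronal ubiquitin hydrolase, differed by 2.02 ± 0.26. Rgs4 and Nefl were among the 3 of 22 that passed with the ring as background.

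The 7 members that did not pass with all arrays included neuronal genes with strong signal in both groups. Mllt11 read 11.78, 11.65 and 11.35 in Tp and 10.84 and 10.78 in Tn. Mapt, the tau protein of axons, read 9.47, 9.24 and 9.08 against 8.87 and 8.92, a difference of 0.37 ± 0.24. Ina, an intermediate filament of neurons, read 9.74, 9.10 and 9.09 against 9.57 and 9.36, so that the groups overlapped. Nsg2 (0.28 ± 0.28), Ap3b2 (1.10 ± 0.33), Rab6b (1.0 ± 0.30) and Chl1, a cell adhesion molecule (-0.56 ± 0.30), were the others. Mllt11, Ap3b2 and Rab6b were the 3 that passed with quantile scaling, the replicate block or the scan block. Transcripts of neurons were present in Tn too.

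All 12 named glial probes were higher in Tp, with a median difference of 2.69. Lgi4, secreted by Schwann cells and needed for myelination, read 7.95, 7.80 and 7.72 in Tp and 3.82 on both Tn arrays. Its fold was 16. Ednrb, the endothelin receptor of crest progenitors, glia and melanoblasts, read 9.96, 9.82 and 9.33 against 6.26 and 6.01, a fold of 11.9. Mal, a membrane protein of myelinating cells, differed by 3.29 ± 0.28, Egfl8 by 2.95 ± 0.28 and Entpd2, an ectonucleotidase, by 2.50 ± 0.24.

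Fabp7 and Pmp2 encode fatty acid binding proteins of glia. Fabp7 read 13.69, 13.67 and 13.55 in Tp and 11.18 and 10.93 in Tn, so it was 5.99-fold higher in Tp while the Tn arrays also lay far above background. Radial glia of the central nervous system also express it. Pmp2 read 5.39, 5.0 and 4.0 against 2.77 and 3.13, a difference of 1.84 ± 0.36. It was the member with the widest spread in Tp, replicate 3 being the lowest, and it lost its call without Tn replicate 1 (adjusted p = 0.076). With the ring as background, 5 of the 12 passed, Lgi4, Ednrb, Foxd3 and Fabp7 among them. Pcdh21, Kcnmb2 and Wdr66 stood among the 10 highest but in no list. Pcdh21, current symbol Cdhr1, is a protocadherin. It read 8.39, 8.54 and 8.22 in Tp and 4.13 and 4.36 in Tn, a fold of 17.6. Kcnmb2, a subunit of calcium-activated potassium channels, was higher by 3.91 ± 0.27 and Wdr66 by 3.77 ± 0.27.

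Transcription factors of the crest did not move as 1 group. Of 6 named, 3 were higher in Tp, Foxd3 and Tlx2 among them, Pax7 was lower, and Tcfap2a and Tcfap2c did not pass. Foxd3, a forkhead factor of crest progenitors that stays on in glia, read 7.40, 6.96 and 6.76 in Tp and 4.02 and 4.07 in Tn, a fold of 7.97 (adjusted p = 9.4e-05). The difference was 3.38 and 2.89 within the shared scans. Pax7, a paired-box factor of the dorsal neural tube, cranial crest and muscle precursors, was not above the blank spots on any of the 3 Tp arrays. It read 4.43 and 4.0 in Tn and was lower in Tp, by a rough fold of 15.5. Tcfap2a, an AP-2 factor of early crest, read 3.96, 3.95 and 3.27 against 2.71 and 2.87 (0.93 ± 0.27, adjusted p = 0.074). It passed with quantile scaling (1.17), without Tp replicate 3 (1.16) and in the fits with a block, which lose that array. Tcfap2c differed by 0.24 ± 0.26. Tp held Foxd3 and Ednrb above Tn on every array, but both come from the study's table of differing genes. They are therefore no independent check of the label, and Sox10 was not analysed here. The Foxd3 call held with the ring as background, and that of Pax7 did not.

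Dlx1 and Dlx2, linked homeobox genes, were both higher in Tp. Dlx1 read 6.62, 7.06 and 6.83 against 4.41 and 4.56, and Dlx2 read 7.27, 6.60 and 6.51 against 4.47 and 4.46. The folds were 5.10 and 5.03. Dlx6, of another linked pair, did not pass at 0.62 ± 0.25. None of the 3 passed with the ring as background. Nfia and 1700027L20Rik were chosen after their values were seen, since Nfia marks the switch to glia and Prss56, the current symbol of the other, marks boundary cap cells at nerve roots. Nfia was not above the blank spots on either Tn array and was higher in Tp, by a rough fold of 6.25. The Prss56 probe read 5.83, 5.89 and 5.29 in Tp and 3.09 and 3.12 in Tn, a fold of 5.90. With the ring as background both lost the call, at 0.067 ± 0.049 for Nfia and 0.26 ± 0.12 for the Prss56 probe.

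**Figure D3:**
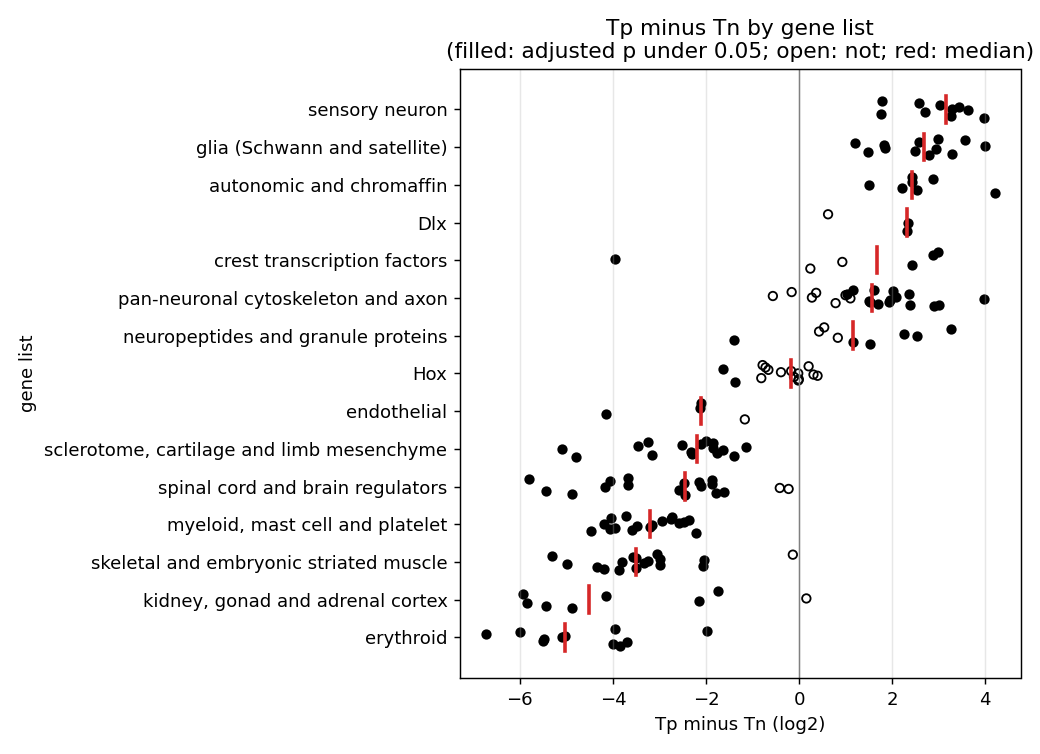
Tp minus Tn (log2, horizontal axis) for each named probe of 15 gene lists (vertical axis), filled where the adjusted p was under 0.05 and open where it was not, with the list's median in red. The list medians run from 3.15 for sensory neurons to -5.02 for erythroid genes, and the Hox list lies around 0.

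Erythroid genes had the lowest median of the lists, -5.02, and 11 of 11 named probes were lower in Tp. Hba-x, the embryonic alpha-like globin of primitive red cells, read 8.25, 7.02 and 6.80 in Tp and 14.25 and 13.94 in Tn. It was 107-fold lower (-6.74 ± 0.46, adjusted p = 6.6e-06), and the difference was -6.00 and -6.92 within the shared scans. Hbb-y, an embryonic beta-like globin, read 9.89, 9.84 and 9.68 against 15.21 and 15.35, a fold of 44.6. The 2 probes of Hbb-b1, adult beta globin, differed by -6.01 ± 0.36 and -5.51 ± 0.31. Globin genes are near-identical copies, so which copy a probe reads is uncertain.

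The other erythroid members were of several kinds. Car2, carbonic anhydrase, was 34.0-fold lower. Alas2, the first enzyme of haem synthesis in red cells, differed by -3.99 ± 0.29 and -3.96 ± 0.30 on its 2 probes. Tal1, a basic helix-loop-helix factor of blood, differed by -3.86 ± 0.42, Rhd, a blood group protein, by -3.71 ± 0.37 and Trim10 by -1.98 ± 0.25. The processed intensities of the 11 probes summed to between 1724 and 2598 on the Tp arrays and to 99927 and 122280 on the Tn arrays. Red cell transcripts were present in Tp too, with Hbb-y and Hbb-b1 well above background on every array. The 4 globin probes were those of the 11 that passed with the ring as background.

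Olfr376 had the lowest difference of any tested probe. This probe, named as an olfactory receptor in the study's table, read 5.70, 5.55 and 5.16 in Tp and 12.43 and 12.35 in Tn, a fold of 121. Its difference in the craniofacial region was -8.38, beside -8.05 for Hba-x.

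All 17 named probes of myeloid cells, mast cells and platelets were lower in Tp, with a median difference of -3.21. C1qb, a complement chain made by macrophages, read 3.10, 3.07 and 2.70 in Tp and 6.84 and 6.98 in Tn. Cpa3, the carboxypeptidase of mast cells, read 3.22, 3.38 and 1.78 against 7.20 and 7.32, and Cxcl4, platelet factor 4, read 1.61, 1.79 and 1.96 against 5.73 and 6.23. Rac2, a GTPase of blood cells, was empty on Tp replicate 3 and there set to the array's lowest value. It differed by -4.07 ± 0.43. The chemokine Ccl3 (-4.03 ± 0.36) and the chemokine receptor Ccrl2 (-3.73 ± 0.34) were lower as well. With the ring as background 7 of the 17 passed, C1qb, Cpa3 and Ccrl2 among them.

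Striated muscle genes were lower in Tp at 16 of 17 named probes, with a median of -3.50. Actc1, the actin of heart and embryonic skeletal muscle, read 5.94, 5.24 and 4.95 in Tp and 10.97 and 10.41 in Tn, a fold of 39.7. Myog, the myogenin factor of differentiating myoblasts, read 3.28, 3.43 and 2.59 against 8.36 and 7.80, a fold of 31.5. Myl1, a fast muscle myosin light chain, was 20.3-fold lower and Tnnt2, cardiac troponin T, 18.3-fold lower. Myl4, an embryonic myosin light chain, differed by -3.86 ± 0.28 and Vgll2, a cofactor of muscle, by -3.80 ± 0.30. Myoz1 was the exception at -0.13 ± 0.34, with values of 6.90, 6.53 and 5.60 in Tp around the 6.47 and 6.49 of Tn. Actc1 was 1 of 2 probes that passed with the ring as background.

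Regulators of the spinal cord and brain were lower in Tp at 16 of 18 named probes, with a median of -2.46. Lbxcor1, current symbol Skor1, a corepressor of dorsal spinal interneurons, read 2.52, 2.68 and 2.26 in Tp and 7.95 and 8.61 in Tn. It was 55.5-fold lower, with differences of -5.44 and -5.93 within the shared scans. Lhx1, a LIM homeodomain factor of spinal interneurons and of the kidney, read 2.81, 2.82 and 2.66 against 7.98 and 8.40, a fold of 43.1. Msx3, a homeobox gene of the dorsal neural tube, was empty on Tp replicate 3, set there to the lowest value, and differed by -4.06 ± 0.41. Dner, a Notch ligand of neurons, differed by -4.16 ± 0.32 and Gpm6a, a membrane glycoprotein of neurons, by -3.67 ± 0.27. Olig2, a factor of motor neuron and oligodendrocyte progenitors, read 2.53, 1.94 and 1.95 against 2.46 and 2.65 and did not pass. Dll3, a Notch ligand, did not pass either (-0.22 ± 0.32).

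The list of peripheral sensory neurons was higher in Tp at every named member and the spinal cord and brain list lower at 16 of 18. Pan-neuronal genes were higher or not called. With the ring as background 3 of the 18 spinal cord and brain probes passed.

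All 16 named genes of sclerotome, cartilage and limb mesenchyme were lower in Tp, with a median of -2.20. Uncx4.1, current symbol Uncx, a homeobox gene of the caudal sclerotome, read 1.98, 1.62 and 2.02 in Tp and 6.97 and 6.95 in Tn. It was 34.0-fold lower. Pax1, a paired-box factor of the sclerotome, read 5.40, 5.16 and 4.92 against 8.50 and 8.73, and Mia1, a secreted cartilage protein, read 5.89, 6.01 and 5.82 against 9.32 and 8.96. Epyc, epiphycan of growth cartilage, differed by -3.16 ± 0.27. Cart1, a homeobox gene of chondrocytes, had the smallest difference of the list, -1.15 ± 0.22, and lost its call without Tn replicate 1. With the ring as background 3 of the 16 passed, Pax1 and Uncx4.1 among them.

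Genes listed for kidney, gonad and adrenal cortex were lower at 7 of 8 named probes, with a median of -4.51. Hsd3b6, a hydroxysteroid dehydrogenase, read 1.85, 2.34 and 1.62 in Tp and 7.94 and 7.79 in Tn, a fold of 61.0. Its relative Hsd3b2 read 0.77, 1.14 and 1.19 in Tp, above the blanks on 1 array, and had a mean of 5.18 ± 0.46 (SD, n = 2) in Tn. Xtrp3s1, current symbol Slc6a20a, an amino acid transporter, read 4.78, 4.37 and 4.09 against 10.37 and 10.15, a fold of 57.6. Pax8, a paired-box factor of kidney and spinal interneurons, read 1.17, 1.34 and 1.77 against 6.10 and 6.51. Fbp1, a gluconeogenic enzyme, did not pass (0.16 ± 0.23). Hsd3b6 and Xtrp3s1, 2 of the 8, passed with the ring as background. The organ name of this list was not borne out by the craniofacial arrays, where 6 of the 8 were lower in Cp than in Cn with a median of -3.90. In Cn, Hsd3b6 read 8.28 and 7.36 and Xtrp3s1 10.85 and 9.96, and in Cp 1.97 and 2.18 and 3.95 and 3.19.

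Some low values in Tp were near background. The probes of Cpa3, Rac2, Ccrl2, Msx3, Hsd3b6, Pax8, Sox18 and Olig2 were above the blank spots on 2 of the 3 Tp arrays and that of Hsd3b2 on 1.

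Of 4 endothelial genes, Thsd1 (-4.14 ± 0.36), Fli1 (-2.13 ± 0.24) and Ramp2 (-2.10 ± 0.26) were lower in Tp. Sox18, a factor of vessels, did not pass with all arrays (-1.16 ± 0.34, adjusted p = 0.071) and passed without Tp replicate 1, with the scan as a block and among probes listed on all 9 arrays. None of the 4 passed with the ring as background. In the craniofacial region 1 of the 4 was higher in Cp and 1 was lower, with a median of 0.87. The difference between regions passed at 3, all with the lower value in the trunk.

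Hox genes, whose nested domains pattern the trunk from head to tail, did not pass for the most part. Of 15 named, 2 were lower in Tp and 13 did not pass, with a median difference of -0.17. With a pseudocount of 16, 5 were lower, Hoxa5 among them, with the intensity trend 3 were, and with the blank spots as background or without Tn replicate 2 only 1 was. Hoxa10 read 7.79, 7.35 and 7.14 in Tp and 8.76 and 8.85 in Tn, a fold of 2.61, and Hoxd10 read 4.87, 4.50 and 4.72 against 6.51 and 6.15, a fold of 3.09. Both are posterior genes of the lumbar trunk and limb. Hoxa10 lost its call without Tn replicate 2 and with the ring as background, where Hoxd10 passed. Hoxa5 read 8.57, 8.89 and 8.52 against 9.39 and 9.56 and missed the threshold (-0.81 ± 0.24, adjusted p = 0.076). Hoxb6 (0.40 ± 0.27), Hoxb7 (-0.17 ± 0.39), Hoxb5 (-0.11 ± 0.27) and Hoxd4 (0.31 ± 0.30) had overlapping groups.

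Of the called probes, 412 higher and 825 lower had no name in the table. The unnamed probe M200002102 read 6.25, 7.29 and 7.25 in Tp and 1.33 and 2.83 in Tn, a difference of 4.85 ± 0.45, which was higher than that of every named probe. M300003686 read 6.90, 5.74 and 5.73 against 12.84 and 12.74, a difference of -6.66 ± 0.54.

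The same contrast in the craniofacial region, Cp minus Cn, showed which differences were shared. It was called at 1231 probes (5.42%). Of the 941 probes lower in Tp, 337 (35.8%) were also lower in Cp, where 4.12% of all tested probes were lower, and 82 were higher there. Of the 529 higher in Tp, 12 were also higher in Cp, where 1.3% of all tested probes were higher, and 106 (20.04%) were lower. The difference between both contrasts passed at 1392 probes (6.13%), 691 of them higher in the trunk (3.04%).

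Blood and muscle genes were lower in the EGFP+ cells of both regions. The median of the erythroid list was -4.96 in the craniofacial region against -5.02 in the trunk, and that of the muscle list -3.30 against -3.50. The difference between regions passed at 0 of 11 erythroid and 0 of 17 muscle probes, though the standard error of a single probe could be large (Hba-x 1.31 ± 0.68). Of the 17 myeloid probes, 1 passed.

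Neuronal genes were different. At all 10 sensory and 21 of 22 pan-neuronal probes Tp minus Tn passed as above Cp minus Cn, sign included. This was not always a larger trunk difference. Of the 22 pan-neuronal probes, 17 were lower in Cp than in Cn, with a median of -2.11 against 1.57 in the trunk. Mapt differed by 0.37 in the trunk and by -3.02 in the craniofacial region. Th read 2.02 and 2.28 in Cp and 3.88 and 4.28 in Cn, so it was lower in craniofacial EGFP+ cells and higher in trunk EGFP+ cells, and the differences stood 6.15 ± 0.46 apart (adjusted p = 7.4e-05). Stmn4, a microtubule regulator of neurons, read 7.02 and 6.55 in Cp and 10.26 and 10.13 in Cn, and 10.33, 10.37 and 10.12 in Tp and 8.22 and 8.46 in Tn. Its differences were 5.35 ± 0.37 apart. Of the 12 glial probes, 8 had Tp minus Tn above Cp minus Cn by this test. The glial list had a median of 0.78 in the craniofacial region. Of the 7 autonomic and chromaffin probes, 4 were lower in Cp and 1 was higher, with a median of -1.93. Of the 18 spinal cord and brain probes, 16 were lower in Cp, with a median of -3.46. For these 18, Tp minus Tn passed as above Cp minus Cn at 6 and as below it at 4.

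Genes of sclerotome, cartilage and limb went the other way. In the trunk all 16 were lower in EGFP+ cells, while in the craniofacial region 10 were higher and 1 was lower, and the difference between regions passed at 14. Pax1 read 8.47 and 8.88 in Cp and 6.52 and 7.04 in Cn, the reverse of its trunk order, with differences 5.36 ± 0.40 apart. Pax7 read 4.85 and 4.38 in Cp and 3.26 and 3.24 in Cn, while no Tp array lay above the blank spots. Mia1 and Epyc were also higher in Cp and lower in Tp. Uncx4.1 was lower in EGFP+ cells of both regions, at -5.59 in the craniofacial region.

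**Figure D4:**
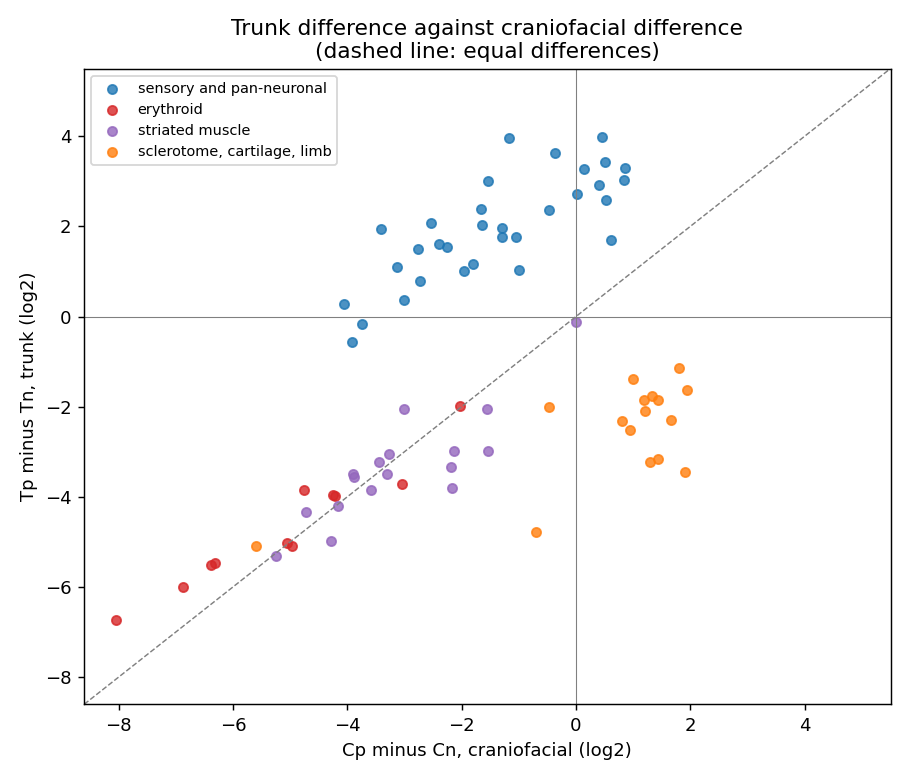
Tp minus Tn (vertical axis, log2) against Cp minus Cn (horizontal axis, log2) for probes of 5 gene lists in 4 colours, with a dashed line of equal differences. Erythroid and muscle probes lie near the line, neuronal probes above it, and most sclerotome and cartilage probes below it with positive values in the craniofacial region.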

How the data were processed

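RNA of sorted EGFP+ and EGFP- cells was hybridised to 9 arrays with 1 colour (3D-Gene). The authors deposited scanner intensity readings of every spot and its surrounding ring, together with a processed intensity per probe. The processed values follow the spot signal minus the blank spots, have a median of about 25 on every array and leave out spots no brighter than the blanks. Their formula was not given in the sources used here. On the trunk arrays the scanner's detector gain was 32 to 37. Spot readings are whole units with a median of 38 to 62, so low values are coarse, and the number of arrays limits the precision.

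A missing value was replaced by the lowest value of its array, and log2 was taken. Probes with a value on at least 2 of the 5 trunk arrays were kept (22723 of 23473). One limma fit (version 3.58.1, R 4.3.3) held all 4 groups, with 5 residual degrees of freedom, and gave Tp minus Tn, Cp minus Cn and their difference. P-values were adjusted by Benjamini-Hochberg over all kept probes. A spot at or below the blank mean plus 2 SD was not above background. Where no array of a group was above background, the fold is called rough, since that group's values lie within background. The scripts were tested on simulated data. The alternatives were other backgrounds, quantile scaling, a pseudocount of 16, other filters, an intensity trend, replicate or scan as a block, the trunk arrays alone and each array left out. Filtering on the blank limit, and pairs 1 and 2 alone, were added after seeing the data.

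Names came from the study's table. Of its 302 names, 297 matched RefSeq and 43 of these had another current symbol. Promoters are from RefSeq (GRCm38.p6). The members and gene lists were chosen with earlier results of these data known. The text names the 10 highest and 10 lowest named probes among those called without overlap. It also names up to 6 members per list with the largest differences and the members that did not pass or went against their list. Foxd3, the Hox genes of the study and some paralog pairs are named too. Some genes this rule takes are not reported here. The spread between arrays, not between litters, sets the errors.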

Additional observations from a re-analysis of the deposited data

Results flagged for a closer look

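At 11 list members, 6 with the highest and 5 with the lowest values, the Tp minus Tn difference differed from the Cp minus Cn difference by a test of the difference itself. In log2 units the trunk difference was higher by 6.15 for Th, 5.35 for Stmn4, 5.17 for Cartpt, 5.14 for Neurod1, 4.92 for Insm1 and 4.61 for Elavl4 (1 of its 2 probes). It was lower, by -5.36 for Pax1, -5.32 for Pax7, -4.59 for Epyc, -4.54 for Mia1 and -4.02 for Pax8. The adjusted p was between 7.4e-05 and 0.00026 at these genes. They were picked for their extreme values, so passing the test of the difference itself is no independent evidence. In the craniofacial region alone, the differences of Neurod1 and Pax8 did not pass (adjusted p = 0.057 and 0.15).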

How the results depend on the processing

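Counts moved most in the setting that took the ring as background and added an offset of 50, whose parts were not separated. There 58 probes were higher, 66 lower and 45 had a difference of differences. With the blank spots as background 558 were lower. With the scan as a block 2207 had a difference of differences. Leaving out 1 array gave 319 to 483 higher, 572 to 963 lower and 940 to 1414 with a difference of differences. The cause was not tested. Of 109 probes named in the text for their trunk values, 86 were called; none of these changed sign in any setting, 60 lost the call with the ring and 8 under at least 1 other setting. The 8 were Mal, Pmp2, Pcsk2, Chrna3, Scg3, Cart1, Hoxa10 and Hoxd10. Of the uncalled probes, 5 gained a call with the scan block, 4 with the replicate block, 4 with quantile scaling, 3 with the intensity trend, 3 without Tp replicate 3, 3 with the trunk pairs only, 2 without Tp replicate 1, 2 with a pseudocount of 16 and 1 each with the ring, the blank spots and the filter on all 9 arrays. They were Ap3b2, Rab6b, Mllt11, Tcfap2a, Resp18, Scg5, Hoxa5 and Sox18. Reversals were seen at probes that had not passed. With the ring, Tcfap2c was -0.054, Fbp1 -0.0081, Hoxb5 0.25 and Hoxa5 0.31, and with the blank spots Hoxb5 was 0.0081. Without 1 array, Tcfap2c ran from -0.092 to 0.58, Hoxb5 from -0.29 to 0.072, Myoz1 from -0.41 to 0.24, Hoxb7 from -0.47 to 0.13 and Dll3 from -0.41 to 0.10. Replicates 1 and 2 shared scans and deviated together in Tp and Tn (r = 0.41). The labels do not say whether they also shared litters or days of cell preparation. The main fit left this pairing out, and the fits with a block hold it. With the replicate block, the scan block, or pairs 1 and 2 alone with the replicate block, Tp replicate 3 drops out of the difference, and Hoxb5 was 0.071, Myoz1 0.24 and Dll3 0.10. The replicate block gave 605 higher, 830 lower and 1610 with a difference of differences.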
